A study of Mus musculus with 4 samples.

Results

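The genes described here copy the nuclear DNA: 47 genes for origin recognition, licensing, helicase activation, the polymerases, the sliding clamp and its loader, single-strand binding, Okazaki fragment processing and nucleotide synthesis. Every probe set annotated to exactly 1 symbol and to 1 of these genes was taken, 104 of the 45101 probe sets of the array (47 of the 18193 genes with such a probe set). They were measured in HL-1 cells, a mouse atrial muscle line that beats in culture, on 1 Affymetrix array per sample. In 2 samples the confluent cells received rapid electrical pacing for 24 h at 300 beats per minute, 1.5 to 2 times the control rate per the labels, and in the other 2 the cells contracted spontaneously with no stimulation. No group was paced at the control rate, so pacing as such and the faster rate cannot be told apart. The labels number the stimulated samples as experiments 1 and 2, but do not say whether the samples of either group came from separate cultures, so a p-value here reflects only how these samples vary, which may be technical.

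HL-1 cells descend from an atrial tumour of mice in which the promoter of the atrial natriuretic peptide gene drives the SV40 large T antigen. Both groups therefore share this transgene, which was not analysed here. Large T binds the RB family of proteins, which otherwise restrain E2F transcription factors, and these cells keep dividing while they beat, unlike atrial muscle in the adult heart. The E2F factors in turn activate many of the genes below.

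Replication is prepared in G1, when the origin recognition complex (ORC) binds DNA and, with CDC6 and CDT1, loads the MCM2-7 helicase, a step called licensing that geminin blocks later in the cycle. In S phase the kinase CDC7 with its partner DBF4 helps to recruit CDC45 and the GINS complex, which turn the loaded helicase on. DNA polymerase alpha with primase starts each strand, and replication factor C (RFC) loads the ring PCNA, which holds polymerases delta and epsilon on the template. RPA covers single-stranded DNA, FEN1 and DNA ligase 1 join the Okazaki fragments, and ribonucleotide reductase, thymidylate synthase and thymidine kinase supply the nucleotides.

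Promoter sequence from RefSeq (build GRCm38.p6) is shown for genes on which the comparison turns: both genes that passed the test, 3 genes with E2F-type letters from groups with different changes, and Rrm2, a nucleotide synthesis gene with 3 probe sets past the filter on dim signals. Each line gives the 120 bases before the transcription start on the gene's strand. Capitals mark E2F-type letters (TTTCGCGC, TTTGGCGC, TTTCCCGC or TTTGCCGC) and CCAAT, the core letters of the NF-Y motif, each on either strand.
Orc1: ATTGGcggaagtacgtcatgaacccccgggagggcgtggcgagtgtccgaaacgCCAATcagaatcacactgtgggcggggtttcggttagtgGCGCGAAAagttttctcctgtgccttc
Mcm6: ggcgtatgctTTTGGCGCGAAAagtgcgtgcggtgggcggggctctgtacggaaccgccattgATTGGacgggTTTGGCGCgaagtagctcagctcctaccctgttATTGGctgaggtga
Gins3: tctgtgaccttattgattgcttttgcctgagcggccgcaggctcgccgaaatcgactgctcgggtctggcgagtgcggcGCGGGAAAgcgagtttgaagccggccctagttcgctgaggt
Rfc3: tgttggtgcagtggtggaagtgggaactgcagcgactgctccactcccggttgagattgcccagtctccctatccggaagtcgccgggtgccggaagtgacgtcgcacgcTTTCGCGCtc
Orc4: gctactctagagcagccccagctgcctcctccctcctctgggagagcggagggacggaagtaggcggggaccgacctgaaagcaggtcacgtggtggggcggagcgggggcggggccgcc
Rrm2: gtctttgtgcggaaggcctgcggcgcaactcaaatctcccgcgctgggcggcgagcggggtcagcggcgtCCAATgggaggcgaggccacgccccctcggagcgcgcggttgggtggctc
The stretches lie at chr4:108579334-108579453 (Orc1, plus strand), chr1:128359706-128359825 (Mcm6, minus), chr8:95633439-95633558 (Gins3, plus), chr5:151651209-151651328 (Rfc3, minus), chr2:48949268-48949387 (Orc4, minus, 1 of 3 annotated starts) and chr12:24708134-24708253 (Rrm2, plus).

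Of the 47 genes, 39 had a promoter in the RefSeq table, with 48 entries in all, some of which overlap. In the 250 bases before the start, E2F-type letters stood in 9 of the 48 entries (18.8%), those of Orc1, Orc3, Cdc6, Mcm5, Mcm6, Mcm7, Gins3, Pola1 and Rfc3, against 1.86% of all 32851 promoters in the table. CCAAT stood in 24 of the 48 entries against 33.8% of all promoters. TTTGAA or TTCGAA, letters of the cell cycle homology region found in promoters of mitotic genes, stood in 16.7% against 17.1%. In Mcm6 the letters at 110 and 106 bases before the start overlap each other on opposite strands. A match is a description of these letters and not a measured binding site. The 9 genes with E2F-type letters did not share a direction. Gins3 fell, and the others did not pass. On the log2 scale Orc1 differed by 0.54, Rfc3 by 0.12, Mcm5 by 0.06 and Mcm7 by 0.05. Cdc6 differed by 0.04, Mcm6 by 0.01, Orc3 by -0.06 and Pola1 by -0.15.

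The replication genes were called no more often than other genes. Among the 47 genes, 1 rose with stimulation (Orc4) and 1 fell (Gins3), which is 4.26% of them, against 5.53% called among the 13058 genes tested (3.91% higher and 1.62% lower). The median change, stimulated minus control on the log2 scale, was 0.01, against -0.01 over all genes tested. In either direction 27 of the 47 (57.4%) changed by less than 0.25, near the 59.6% of all genes tested. None of the 47 reached a 2-fold change, which 3.18% of all genes tested did. The 95% interval of the change lay within a 2-fold rise and a 2-fold fall for 46 of the 47, Orc4 being the exception. It did so for 11440 of the 13058 genes tested. Before adjustment 12 genes (5 higher, 7 lower), or 25.5%, had a p under 0.05, against 25.6% of all genes (13.9% higher, 11.7% lower). The stimulated arrays lay on one side of both control arrays in 24 of the 47 genes (51.1%), 12 above and 12 below, against 55.3% of all genes, 27.6% above and 27.7% below. These shares are near those of the array in general. In bulk RNA, fewer cells in S phase and less RNA per cell cannot be told apart.

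**Figure D1:**
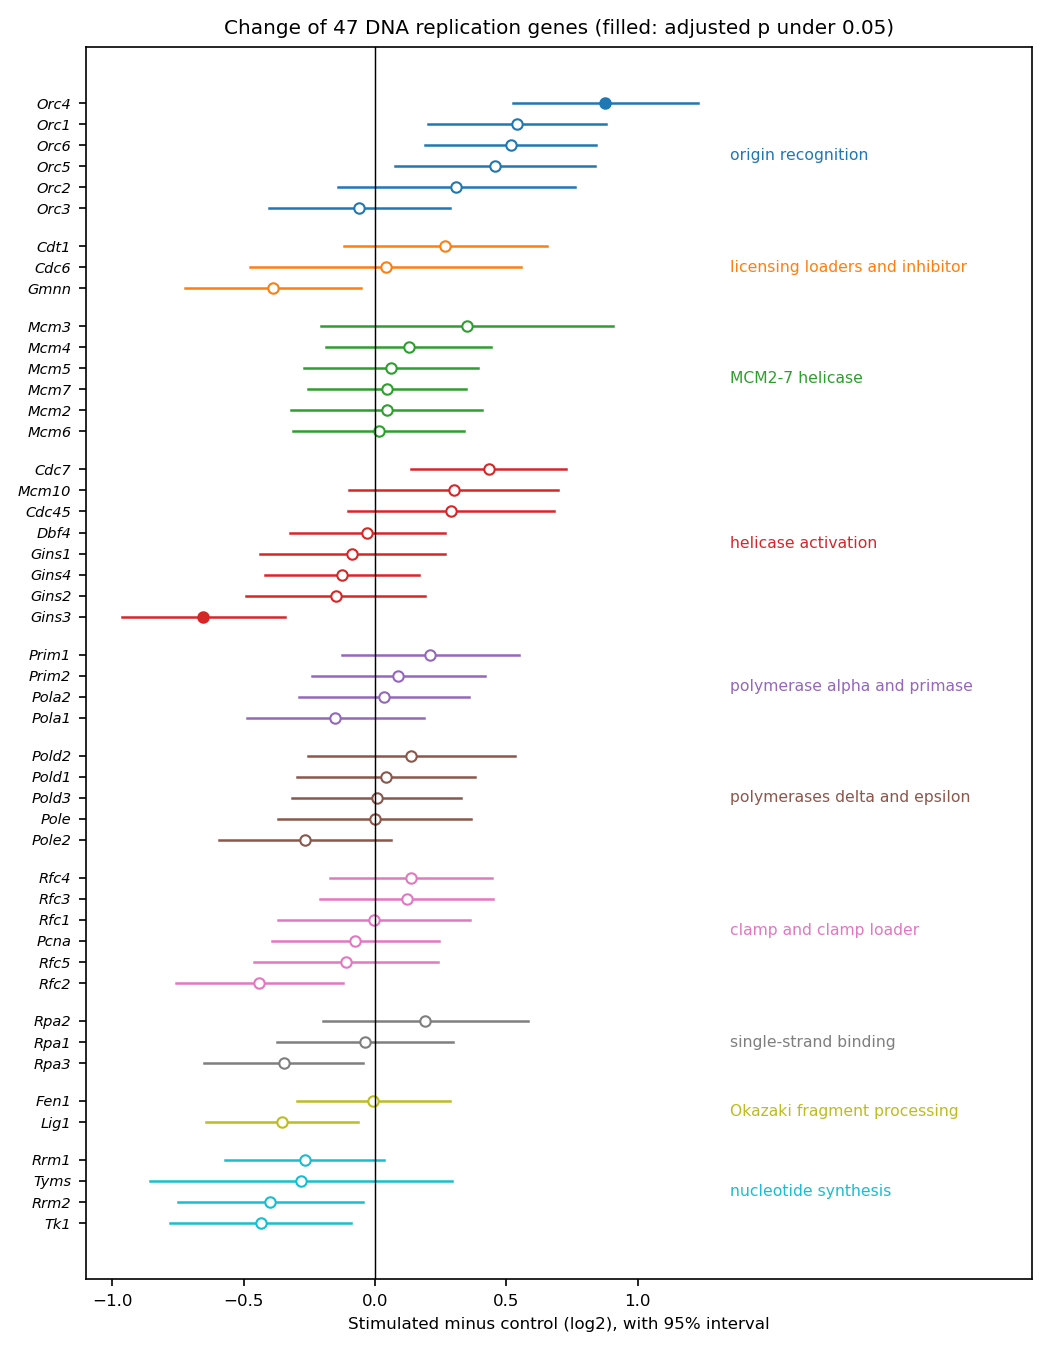
Change of each of the 47 genes, stimulated minus control on the log2 scale, grouped by function, with points at the estimate, bars for the 95% interval of the limma fit over 2 arrays per group, and filled points for an adjusted p under 0.05. Orc4 at 0.88 and Gins3 at -0.65 are the filled points, 5 of the 6 origin recognition genes lie above 0, and all 4 nucleotide synthesis genes lie below it.

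The functional groups did not lie at one value. Genes of licensing (ORC, loaders and MCM2-7, 15 genes) had a median change of 0.13 with 13 of 15 above 0, the 9 polymerase genes a median of 0.04, the 5 clamp loader genes -0.0026, and the 4 nucleotide synthesis genes -0.34 with 4 of 4 below 0. Within licensing 5 of 6 ORC genes and 6 of 6 MCM2-7 genes lay above 0, with medians of 0.49 and 0.05. The difference between groups was not tested.

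Of the functional groups, origin recognition had the highest median change, 0.49. Orc4, a subunit of the ring that encircles origin DNA, read 8.68 and 8.60 in controls and 9.65 and 9.38 in stimulated cells. Both stimulated arrays lay clearly above both controls, and Orc4 rose by 0.88 ± 0.14 (SE, n = 2 per group), or 1.84-fold (adjusted p = 0.0338). The rise was a matter of the probe set: its other probe sets past the filter on dim signals gave 0.39 (adjusted p = 0.129 over all probe sets) and 0.07 (adjusted p = 0.778), both above 0. With the mean of all Orc4 probe sets the change was 0.34 (adjusted p = 0.109). The change was 0.74 without stimulated 1 (adjusted p = 0.12) and 1.01 without stimulated 2 (adjusted p = 0.0567). It was 0.92 when control 1 was left out (adjusted p = 0.149) and 0.84 when control 2 was (adjusted p = 0.182), so the call needed all 4 arrays.

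Orc1, the ORC subunit that is made and destroyed with each cycle, read 6.36 and 6.59 in controls and 7.07 and 6.96 in stimulated cells. The change of 0.54 ± 0.14 did not pass (adjusted p = 0.0776), and its other probe set gave 0.15. Orc6, the subunit least firmly bound to the complex, read 8.62 and 8.77 against 9.28 and 9.13, a change of 0.52 ± 0.13 (adjusted p = 0.0792). Orc5, another ring subunit, read 7.96 and 8.26 against 8.65 and 8.48, a change of 0.46 ± 0.16 (adjusted p = 0.138). In these 3 genes, as in Orc4, the groups did not overlap, and the control arrays of Orc1 and Orc5 differed more from each other than the stimulated arrays did.

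Orc2 differed by 0.31 (other probe sets 0.08 and 0.41), with stimulated arrays at 10.09 and 9.61 against 9.59 and 9.49, so that stimulated 2 stood barely above control 1. Orc3 was the member of the complex that did not share the direction, at -0.06 (95% interval -0.40 to 0.28), and its other probe sets both gave -0.03. In all, 1 of 6 ORC genes rose and 0 fell, where 3.91% of all genes were called higher and 1.62% lower. Both stimulated arrays lay above both controls in 5 of 6, as in 27.6% of all genes.

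The licensing factors did not share a direction, and 0 of 3 passed (limma; 1 at an unadjusted p under 0.05, Gmnn). Cdt1, which brings the helicase to ORC, differed by 0.27 ± 0.16 (adjusted p = 0.356) and its other probe set gave 0.39. Gmnn, which encodes geminin, the inhibitor of CDT1, read 10.59 and 10.72 in controls and 10.36 and 10.17 in stimulated cells. The groups did not overlap, and the change was -0.39 ± 0.14 (adjusted p = 0.15). Cdc6, the ATPase that acts with CDT1, differed by 0.04, but its stimulated arrays read 9.86 and 9.30, on both sides of the controls at 9.65 and 9.44.

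The MCM2-7 helicase genes, which encode the motor that unwinds DNA, had a median of 0.05 on their brightest probe sets. Mcm2 read 11.21 and 11.14 in controls and 11.37 and 11.07 in stimulated cells, and its change was 0.04 (95% interval -0.32 to 0.41). Mcm6 differed by 0.01, Mcm5 by 0.06, Mcm7 by 0.05 and Mcm4 by 0.13, and 0 of the 6 passed (limma; lowest adjusted p = 0.404, 0 at an unadjusted p under 0.05). Mcm3 had the highest value, 0.35, but control 2 at 10.10 stood apart from control 1 at 10.76, and its other 4 probe sets gave -0.17 to 0.20. Over the 6 genes the 95% intervals spanned -0.32 to 0.91. Other probe sets gave 0.36 for Mcm6 (unadjusted p = 0.0467, adjusted p = 0.192 over all probe sets) and 0.28 for Mcm4, in both with the stimulated arrays above the controls. Those of Mcm7 gave -0.22, -0.15 and 0.04, those of Mcm5 -0.17 and -0.04, and that of Mcm2 0.03, so that the sign differed between probe sets in Mcm3, Mcm5 and Mcm7.

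Helicase activation held genes at both ends. Gins3, a subunit of the GINS complex that joins CDC45 to the helicase, read 8.35 and 8.25 in controls and 7.58 and 7.71 in stimulated cells. Both stimulated arrays lay below both controls, and Gins3 fell by 0.65 ± 0.13, or 1.57-fold (adjusted p = 0.0449). Its other probe set gave -0.60 with the same order of arrays. The call lay close to the threshold: in the fit of every probe set its adjusted p was 0.0513 and 0.0614 on the other probe set. The change was -0.59 without stimulated 1 (adjusted p = 0.161) and -0.72 without stimulated 2 (adjusted p = 0.0854). It was -0.60 when control 1 was left out (adjusted p = 0.204) and -0.70 when control 2 was (adjusted p = 0.196), so this call also needed all 4 arrays.

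The other GINS subunits also lay below 0 without passing, Gins2 at -0.15 (other probe set -0.24), Gins4 at -0.13 and Gins1 at -0.09 (other probe set 0.01). For Gins1 the arrays overlapped. Whether Gins3 differed from its partners was not tested, and its 95% interval, -0.96 to -0.34, overlapped those of the other 3 (-0.49 to 0.19 for Gins2).

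Cdc7, the kinase that phosphorylates the loaded helicase, read 9.18 and 9.14 against 9.62 and 9.56, a change of 0.43 ± 0.12 that did not pass (adjusted p = 0.0921). The groups stood apart on this probe set, but the other Cdc7 probe set gave 0.05. Its partner Dbf4 differed by -0.03. Mcm10, a scaffold at the start of unwinding, and Cdc45 differed by 0.30 and 0.29, and in both stimulated 1 was well above stimulated 2 (8.86 and 8.49 in Mcm10, 9.75 and 9.38 in Cdc45). Dimmer probe sets gave -0.05 and 0.03 for Mcm10 and 0.10 for Cdc45.

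**Figure D2:**
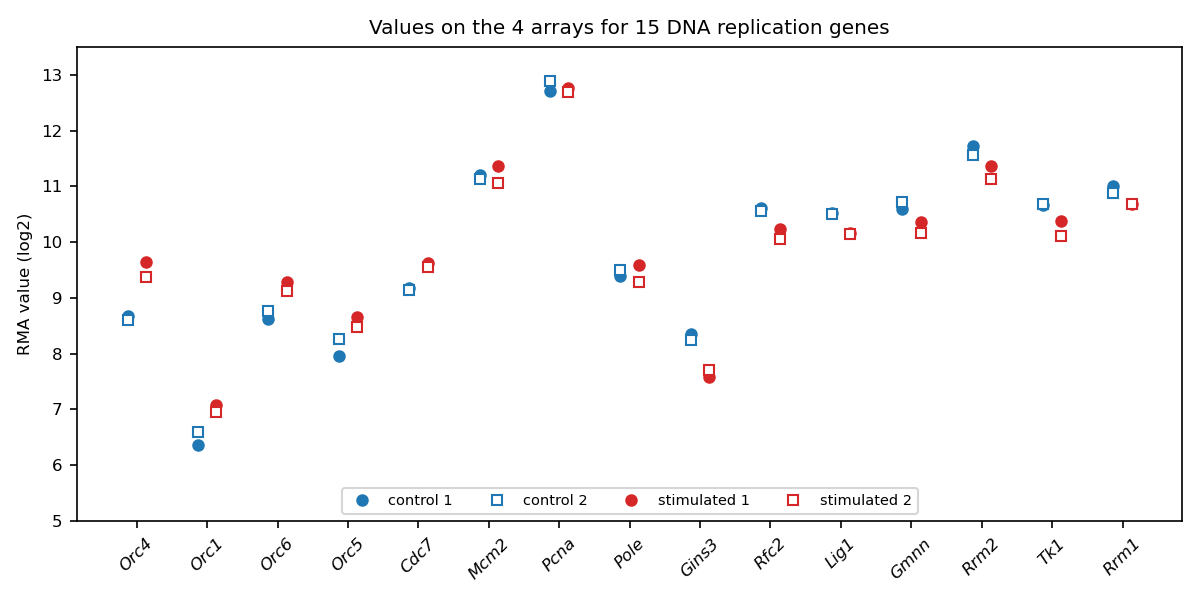
RMA values on the log2 scale of 15 replication genes on each of the 4 arrays (blue for control, red for stimulated, circles for sample 1 and squares for sample 2). Stimulated points lie above both controls in Orc4, Orc1, Orc6, Orc5 and Cdc7, overlap them in Mcm2, Pcna and Pole, and lie below both in Gins3, Rfc2, Lig1, Gmnn, Rrm2, Tk1 and Rrm1. Heights of different genes are not comparable, since each comes from its own probes.

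Polymerase genes also lay near 0. Of the 9 genes, 0 passed (limma; lowest adjusted p = 0.278, 0 at an unadjusted p under 0.05), and 8 of 9 changed by less than 0.25. Pole, the catalytic subunit of the leading strand polymerase, read 9.39 and 9.49 in controls and 9.59 and 9.29 in stimulated cells, so the stimulated arrays lay on both sides of the controls. Its change was -0.00081 (95% interval -0.37 to 0.37). Pole2, the second subunit of that enzyme, had the lowest value, -0.27 ± 0.13, with both stimulated arrays (8.91 and 8.73) below both controls (9.03 and 9.14).

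Of the polymerase delta genes Pold1, the catalytic subunit, differed by 0.04, Pold2 by 0.14 and Pold3 by 0.01. In the primase complex Prim1, the subunit that makes the RNA primer, had the highest value, 0.21 ± 0.14 (other probe set 0.26), and Prim2 gave 0.09 (other probe sets -0.02 and 0.32). Pola1, the catalytic subunit of polymerase alpha, and Pola2 gave -0.15 and 0.04.

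The clamp and its loader were mixed in sign. Pcna, which encodes the sliding clamp, read 12.72 and 12.89 in controls and 12.77 and 12.69 in stimulated cells, an overlap, with a change of -0.07 (95% interval -0.39 to 0.24). Rfc2 read 10.62 and 10.56 against 10.24 and 10.06, both stimulated arrays lower, and changed by -0.44 ± 0.13 (adjusted p = 0.103). Its other probe sets gave -0.44 and -0.18, also below 0. Rfc1, the large subunit, differed by -0.0026 on its brightest probe set and by -0.03 and -0.43 on the others. Rfc3, Rfc4 and Rfc5 differed by 0.12, 0.14 and -0.11, and 0 of the 6 genes of this group passed (limma; 1 at an unadjusted p under 0.05, Rfc2).

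At the single strand and at the fragment ends 0 of 5 genes passed (limma; 2 at an unadjusted p under 0.05, Rpa3 and Lig1). Rpa1, the large subunit of RPA, differed by -0.04, and Rpa2, which is phosphorylated under replication stress, by 0.19, both with overlapping arrays. Their other probe sets gave 0.09 for Rpa1 and 0.04 for Rpa2. Rpa3, the small subunit, read 11.00 and 11.12 against 10.74 and 10.69, a change of -0.35 ± 0.12 (adjusted p = 0.152). Lig1, which seals the nicks between fragments, read 10.52 and 10.50 against 10.17 and 10.15, a change of -0.35 ± 0.12 (adjusted p = 0.134). In Rpa3 and Lig1 the groups stood apart and the arrays of each group lay close together. Fen1, which trims the fragments, differed by -0.01 (other probe set 0.13).

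All 4 nucleotide synthesis genes lay below 0, and 0 passed on the brightest probe set (limma; 2 at an unadjusted p under 0.05, Rrm2 and Tk1). Rrm2 encodes the small subunit of ribonucleotide reductase, the one whose amount follows S phase. On its brightest probe set it read 11.72 and 11.56 in controls and 11.36 and 11.13 in stimulated cells, a change of -0.40 ± 0.14 (adjusted p = 0.156). A second probe set gave -0.46 (adjusted p = 0.0978 over all probe sets). The third read 11.64 and 11.72 against 10.91 and 10.81, and here Rrm2 was called lower, by -0.82 ± 0.13 or 1.76-fold (adjusted p = 0.033 over all probe sets). On each of the 3 probe sets both stimulated arrays lay below both controls. The mean of the 3 changed by -0.56 (adjusted p = 0.0474), so the call depends on how the probe sets are combined.

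Rrm1, the large subunit, gave -0.27 ± 0.12 and -0.38 on its other probe set, with no overlap of the groups on either. Tk1, the thymidine kinase of dividing cells, read 10.66 and 10.69 against 10.38 and 10.11, a change of -0.43 ± 0.14 (adjusted p = 0.124). Tyms, which makes thymidylate, gave -0.28 ± 0.23 with overlapping arrays on a probe set whose controls read 6.49 and 7.05. A dimmer Tyms probe set was called lower, at 4.65 and 4.75 against 5.40 and 5.36 (-0.68 ± 0.13, adjusted p = 0.0452 over all probe sets), though its stimulated values lay near the filter level of 4.39. This Tyms call was lost with no filter on dim probe sets and in each of the 4 fits that left out an array. With the 60th percentile filter, at 5.85, this probe set was too dim to be tested. A probe set shared by Tyms and its pseudogene Tyms-ps, outside the rule for members, read 10.30 and 10.63 against 10.13 and 10.30, a change of -0.25.

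Counted by probe set, 95 of the 104 passed the filter, and 3 of the 95 were called (Orc4 higher, Rrm2 and Tyms lower), or 3.16%, against 4.85% of the 23284 probe sets tested (2.99% higher, 1.86% lower). Both stimulated arrays lay above both controls in 22 and below in 25 of the 95, against 25.9% and 29.4% of all probe sets. For 32 genes more than 1 probe set passed, and in 2 of these, Orc4 and Mcm3, another probe set differed by over 0.5 from the brightest.

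**Figure D3:**
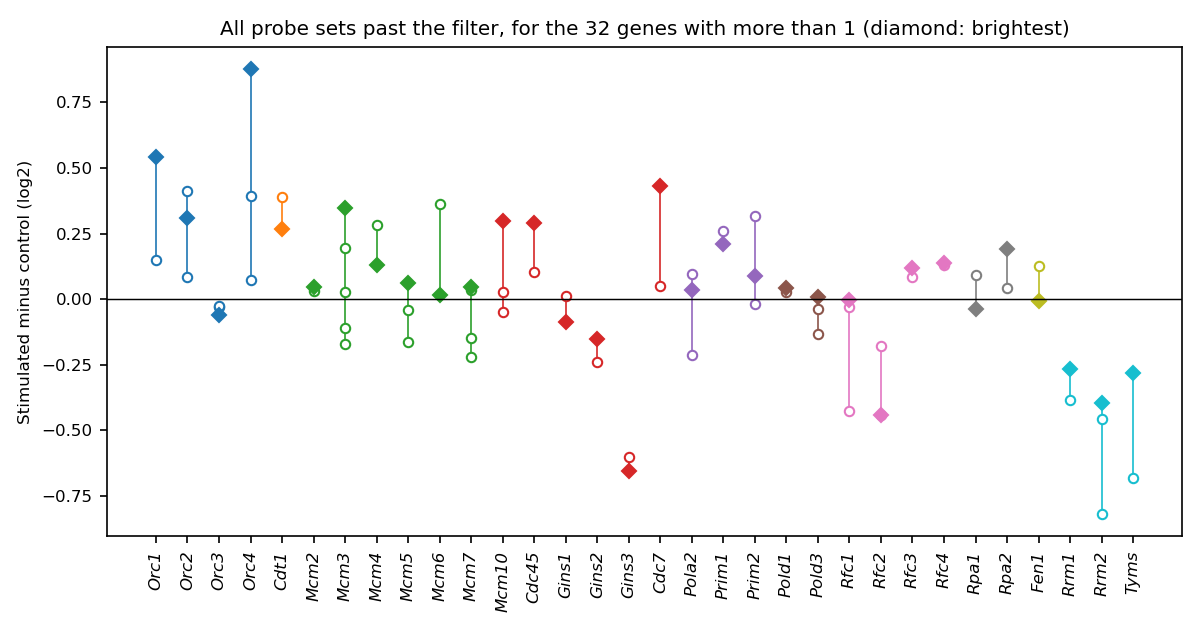
Change, stimulated minus control on the log2 scale, of every probe set past the filter for the 32 genes with more than 1, joined by a line per gene, with a diamond for the brightest probe set and circles for the others. The probe sets of Rrm1, Rrm2, Tyms and Gins3 all lie below 0 and those of Orc1, Orc2 and Orc4 all lie above it, while those of Mcm3 range from -0.17 to 0.35.

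The 2 stimulated arrays differed from each other in this set. In 41 of the 47 genes (87.2%) stimulated 1 read above stimulated 2, against 53.7% of all genes tested. Measured from each gene's control mean, the median of the 47 was 0.10 on stimulated 1 and -0.08 on stimulated 2, so the arrays lay on both sides of the controls. Origin recognition genes were high on both arrays, with medians of 0.57 and 0.41, and nucleotide synthesis genes were low on both, at -0.28 and -0.50. The median SD was 0.14 between stimulated arrays and 0.07 between control arrays. The median change of the 47 genes was -0.08 without stimulated 1 and 0.10 without stimulated 2. That of licensing was 0.32 without stimulated 2, that of the MCM2-7 genes 0.16 and that of polymerases delta and epsilon 0.15. Without stimulated 1 these medians were lower, at 0.05, 0.01 and -0.09, so that only polymerases delta and epsilon went below 0. The cause of the difference between the stimulated arrays was not tested.

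**Figure D4:**
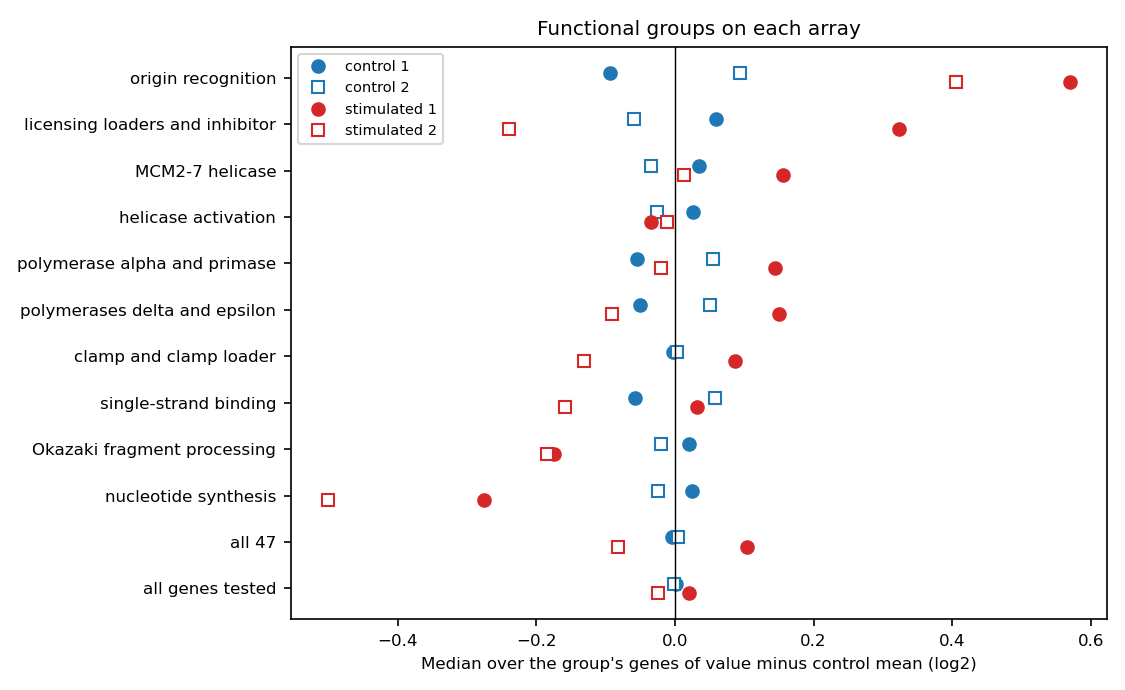
Median over the genes of each functional group of the value minus the gene's control mean (log2), for each array (blue for control, red for stimulated, circles for sample 1 and squares for sample 2). Both stimulated arrays lie to the right in origin recognition (0.57 and 0.41) and to the left in nucleotide synthesis (-0.28 and -0.50), and they lie on both sides of 0 for licensing loaders, the polymerases, the clamp with its loader and single-strand binding.

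Lists of neighbouring genes gave the wider pathway. Of 38 other replication and nucleotide genes 36 were tested, 0 passed and 9 had an unadjusted p under 0.05 (limma), and the median was -0.00018. By the same fit 5.53% of all genes tested were called and 25.6% had an unadjusted p under 0.05. Topbp1, which helps to recruit CDC45, gave -0.49 (adjusted p = 0.0744), the helicase gene Recql4 0.84 (adjusted p = 0.0823), and Dtymk, which makes thymidine diphosphate, -0.54 (adjusted p = 0.0859). The other nucleotide genes tested lay on both sides of 0. Rrm2b gave 0.44, Dctd 0.43, Tk2 0.27 and Samhd1 0.25, while Dut gave -0.10 and Dck -0.13. In Recql4 stimulated 1 at 8.30 stood well above stimulated 2 at 7.66, both above the controls at 7.08 and 7.20.

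Of 18 genes of the E2F and RB families and their partners 1 fell and 0 rose (limma; 4 at an unadjusted p under 0.05), with a median of -0.04. Of all genes tested 1.62% were called lower and 3.91% higher, and 25.6% had an unadjusted p under 0.05. Rbl2, which encodes the RB relative p130 of resting cells, read 7.47 and 7.44 in controls and 6.87 and 6.69 in stimulated cells and fell by 0.67 ± 0.13 (adjusted p = 0.0446). The call of Rbl2 was lost in each of the 4 fits that left out 1 array (-0.76 and -0.58 without stimulated 1 and 2, -0.66 and -0.68 without control 1 and 2, adjusted p 0.106 to 0.211). Among those that did not pass, E2f6, a repressor of the family, gave 0.46 (limma, adjusted p = 0.0855). E2f1, an activator of S phase genes, gave -0.44 (adjusted p = 0.116) and E2f3 gave -0.44 (adjusted p = 0.195). In each of these the groups did not overlap, and each was named after its values were seen. Of 13 checkpoint genes 0 passed (limma; 4 at an unadjusted p under 0.05), with a median of 0.11. Cdc25b, a phosphatase that promotes entry into mitosis, gave -0.72 (adjusted p = 0.0566), its opponent kinase Wee1 -0.49 and Chek1, the checkpoint kinase of stalled forks, 0.42. Of 6 genes of replication-coupled chromatin and methylation 0 passed and 1 had an unadjusted p under 0.05 (limma), with a median of 0.03. Hells gave 0.57, Hat1 0.18 and Dnmt1 0.17, while Uhrf1 gave -0.18, Nasp -0.11 and Slbp -0.11.

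Markers of proliferation, mostly genes of G2 and mitosis, lay lower than the replication genes. Of 9 tested, 2 fell and 0 rose, the median was -0.56, and both stimulated arrays were below both controls in 8 of 9, where 1.62% of all genes were called lower and 27.7% had both arrays below. Plk1, the polo-like mitotic kinase, read 9.08 and 9.13 in controls and 7.85 and 8.19 in stimulated cells and fell by 1.09, and Ccna2, cyclin A2 of S phase and G2, fell by 0.74. Neither passed in any of the 4 fits that left out 1 array, where the change was -1.26 to -0.91 in Plk1 (adjusted p 0.0512 to 0.165) and -0.77 to -0.70 in Ccna2 (adjusted p 0.0737 to 0.183). Cdk1 gave -0.59 and Mki67 -0.56. Whether the markers differed from the 47 replication genes was not tested, and values of several of these markers in the same arrays were known when the lists were written.

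**Figure D5:**
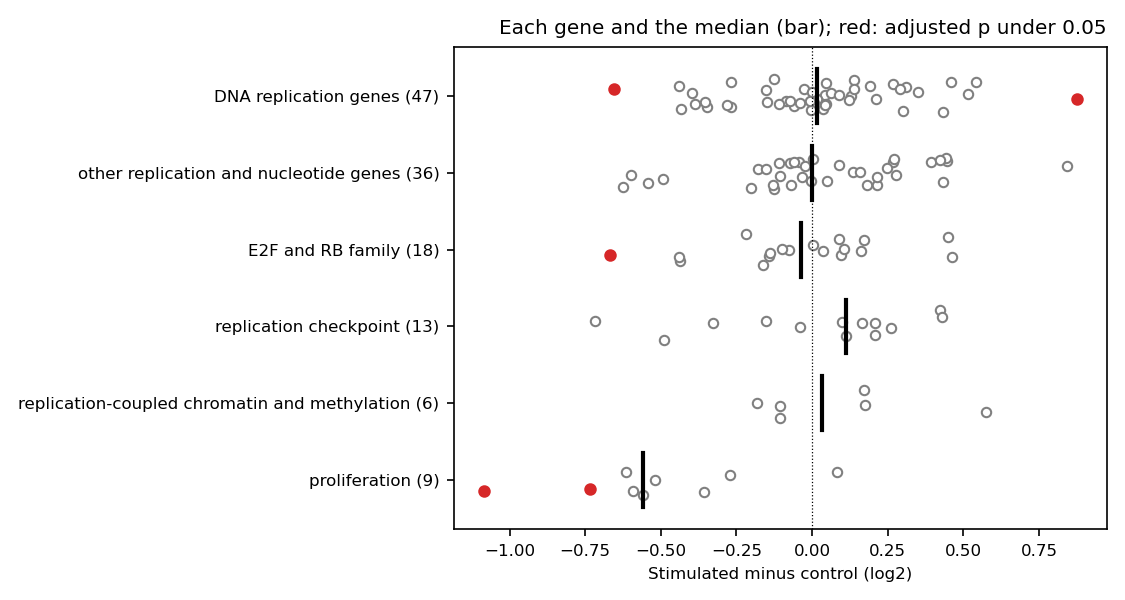
Change of each gene, stimulated minus control on the log2 scale, for the 47 replication genes, the 4 neighbouring lists and the proliferation markers, with the number tested in brackets, a bar at each median and red points for an adjusted p under 0.05. Points are spread vertically only to separate them. The replication genes centre on 0.01 and the 9 proliferation markers on -0.56.

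The array medians of all probe sets lay between 4.96 and 5.01. All 13 cardiac muscle markers passed the filter, and 12 of 13 lay below 0, with a median of -0.48 and both stimulated arrays below both controls in 11. Of all genes tested, 27.7% had both stimulated arrays below both controls, 1.62% were called lower and 3.91% higher. Of these markers 3 fell, the transcription factor genes Tbx5 (-1.51, adjusted p = 0.0269) and Gata4 (-0.74, adjusted p = 0.0382) and the calcium release channel gene Ryr2 (-0.85, adjusted p = 0.0419), and none of the 3 calls held in any fit that left out an array. Pln and Myh6 gave -1.36 and -1.03 without passing. The 1 marker above 0 was Nppa, whose promoter drives the transgene in the line's origin, and it rose by 2.00 (adjusted p = 0.00561). The summed signal of the cardiac markers was 16.10 to 16.11 in controls and 15.75 to 16.01 in stimulated cells on the log2 scale.

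Of the markers of other cell types, 4 of 8 for fibroblasts passed the filter (Col1a2, Col3a1, Lum and Thy1 did not), as did 1 of 7 for endothelium (Kdr), 4 of 5 for smooth muscle (Myh11 did not) and 4 of the 6 leukocyte markers with a probe set (Ptprc and Itgam did not). Smooth muscle Acta2, Tagln and Cnn1 were bright, with stimulated means of 13.64, 12.70 and 10.89. Their changes were -0.06, 0.90 and 0.30, and that of Smtn was -0.60. None of the smooth muscle markers was called (limma; 2 at an unadjusted p under 0.05, Tagln and Smtn). Both stimulated arrays lay above both controls in Tagln and below them in Smtn. The summed leukocyte list lay at 7.70 to 8.31 in controls and 8.52 to 8.75 in stimulated cells. Its members with the highest changes were Cd68, which rose by 2.08 (1.76 to 2.39 with 1 array left out, and past the threshold only without control 2), and Csf1r, which gave 0.89 with overlapping arrays (5.79 and 7.19 against 7.17 and 7.59). The other leukocyte markers with a probe set lay near 0, Lyz2 at -0.07 and Cd3e at 0.07, and, below the filter, Ptprc at -0.06 and Itgam at -0.04. The control mean of Cd68, 4.386, lay just below the filter level of 4.389, so Cd68 was tested only because its stimulated arrays were higher (6.34 and 6.59). The summed lists overlapped between groups for smooth muscle (14.06 to 14.31 against 14.26 to 14.52) and fibroblasts (7.52 to 8.37 against 7.41 to 8.06). That of endothelium overlapped barely, at 7.036 to 7.167 against 6.975 to 7.037. The part of these markers in the results above was not tested.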

How the data were processed

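Biotin-labelled cRNA from total RNA of 2 stimulated and 2 control samples was read on 1 Affymetrix array each, per the labels' protocols. The authors deposited log2 values made with RMA, per the submitters' processing notes (background correction, quantile normalization and a summary per probe set); its version and settings are not given in the sources used here. RMA compresses differences near both ends of the range (2.34 to 14.29), and the number of arrays limits the precision.

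Probe sets were named from GEO's platform annotation. For each gene the brightest probe set with 1 symbol (by its mean of the 4 arrays) was used, and genes at or above the 40th percentile of all probe sets that are not the manufacturer's controls (4.39) were tested, 13058 in all. The groups were tested with limma 3.58.1 (R 4.3.3; eBayes on lmFit, two-sided) at a Benjamini-Hochberg adjusted p of 0.05 over all genes. "Rose" and "fell" mean past that threshold; ± is the SE of the fit. A second fit took every probe set with 1 symbol as a row (23284 past the filter). The fit was tested on simulated data. All 47 members are named; values on every array are given for those that passed and for others that describe their group. The 6 promoters printed were chosen after the values were seen. Of each neighbouring list the called genes are named, or the 3 with the smallest p where none passed, along with some others chosen after the values were seen. The members and lists were chosen with earlier results of these data known. Control numbers follow accession order, and 1 control's protocol text mentions sample 2. Alternatives were the filter, the choice of probe set, scaling, a variance trend, a replicate block and leaving out each array.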

Additional observations from a re-analysis of the deposited data

How the results depend on the processing

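With 2 arrays per group, each left-out array removed every call among the 47 genes: replication genes called lower and higher, member probe sets called and neighbouring genes called were 0 in all 4 such fits (limma), and 4 to 10 of the 47 had an unadjusted p under 0.05, while 20 to 113 genes were called in all, against 722. In these fits the median of the 47 genes ranged from -0.083 to 0.10. By group the median ranged from 0.39 to 0.60 for origin recognition, -0.24 to 0.32 for the licensing loaders and inhibitor, 0.013 to 0.16 for MCM2-7, -0.047 to -0.011 for helicase activation, -0.020 to 0.14 for polymerase alpha and primase, -0.090 to 0.15 for polymerases delta and epsilon, -0.13 to 0.086 for the clamp and its loader, -0.16 to 0.031 for single-strand binding, -0.20 to -0.16 for Okazaki fragment processing and -0.50 to -0.28 for nucleotide synthesis. For licensing together it ranged from 0.048 to 0.32 and for all polymerases from -0.083 to 0.15. A lone array was assumed to vary like those of the other group.

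With the mean of all probe sets 2 replication genes were called lower (Gins3 and Rrm2) and 0 higher, 2 neighbouring genes were called, and the medians were 0.34 for origin recognition, 0.021 for helicase activation, 0.026 for single-strand binding and -0.15 for Okazaki fragment processing. With every probe set as a row 1130 probe sets were called in all, 2 of replication genes lower, and these medians were 0.31, -0.028, 0.042 and -0.0056. Quantile normalization once more gave 0.0021 for single-strand binding, -0.15 for Okazaki fragment processing and 2 neighbouring genes called. The 60th percentile filter gave 2 neighbouring genes and the variance trend 0, Rbl2 having an adjusted p of 0.0504. The cause of these differences was not tested. Orc4 and Gins3 remained called with no filter, the 60th percentile filter, centred arrays, quantile normalization, the variance trend and the replicate block.

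In 18 of the 45 genes that did not pass, the sign of the change differed in at least 1 of the fits that left out an array: the change ranged from -0.18 to 0.055 for Orc3, -0.24 to 0.32 for Cdc6, -0.11 to 0.20 for Mcm2, -0.048 to 0.17 for Mcm5, -0.086 to 0.12 for Mcm6, -0.0091 to 0.10 for Mcm7, -0.21 to 0.035 for Gins1, -0.039 to 0.11 for Pola2, -0.00046 to 0.18 for Prim2, -0.083 to 0.16 for Pold1, -0.041 to 0.32 for Pold2, -0.090 to 0.10 for Pold3, -0.15 to 0.15 for Pole, -0.16 to 0.010 for Pcna, -0.15 to 0.15 for Rfc1, -0.25 to 0.026 for Rfc5, -0.16 to 0.081 for Rpa1 and -0.032 to 0.021 for Fen1. With the mean of all probe sets the sign differed for Mcm5 (-0.049), Mcm7 (-0.072), Dbf4 (0.080), Pola2 (-0.027), Pold3 (-0.055), Rpa1 (0.026) and Fen1 (0.061), with centred arrays for Pole (0.012), Rfc1 (0.011) and Fen1 (0.0077), and with quantile normalization once more for Pold3 (-0.025), Pole (0.00050), Rpa1 (0.0021) and Fen1 (0.049). The cause was not tested.

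The labels number the stimulated samples 1 and 2, while the control titles carry no number: the controls were numbered in accession order, and the protocol text of control 2 mentions sample 2. The labels do not say that the numbers mark a shared culture or day, so the pairing in this block was assigned; deviations of same-numbered samples correlated at r = 0.33 across genes. With the replicate number as a block 1345 genes were called in all, 5 member probe sets and 5 neighbouring genes, and the called replication genes were again Orc4 and Gins3.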
